A study of Arabidopsis thaliana with 12 samples.

Results

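AAE15 (AT4G14070), AAE16 (AT3G23790) and 4CL8 (AT5G38120) are 3 Arabidopsis thaliana genes of the acyl-activating enzyme superfamily. They were taken by the gene that the platform's annotation gives for each probe. Each gene has 1 probe, so the members are 3 of the 21500 probes on the array, and all 3 have a value on all 12 arrays. The genes were chosen from their deposited ratios on these same arrays, so their values are given as a description, with no test.

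Each array compared RNA from the aerial parts of Arabidopsis carrying a rice full-length cDNA clone (re-transformants, in Cy3) with RNA from the untransformed wild type Col-0 (in Cy5). There were 6 lines, named after their clones AK069096, AK073112, AK073675, AK065297, AK102323 and AK073210, with 2 replicate arrays per line. Lines and Col-0 shared the same growth conditions, 22 °C under a day of 16 h light. The sources used here do not say what the clones encode, which promoter drives them, how old the plants were or whether replicates came from separate plants. Every p-value therefore reflects variation among arrays, which may be technical. Lines were read from the titles and sample sources, since all 12 descriptions repeat 1 clone name.

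Values are deposited ratios put on the log2 scale, where 0 means equal signal from the line and from Col-0. The log base of the table is not stated and was taken as 10, so every log2 value and fold rests on that. The direction of the ratio is not settled: by the usual order of dyes in the submitters' scanner software a positive value would mean more transcript in Col-0, and by the wording of the sample titles more in the transformant. Results are therefore given as the positive or negative side. The lines were in Cy3 and Col-0 in Cy5 on every array. In the tests against Col-0, a dye effect common to all arrays therefore cannot be told apart from a difference between line and Col-0. In these bulk samples fewer cells of a type and less RNA per cell cannot be told apart. A ratio carries no level, so the labelled tissue could not be checked by the level of its markers. Replicates of a line correlated over 21494 probes with r between 0.59 and 0.80, except those of AK073112, with 0.35. AK073112 replicate 2 instead correlated at 0.80 and 0.82 with the AK069096 arrays, so the main AAE16 results are also given without it.

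Acyl-activating enzymes use ATP to turn a carboxylic acid into an acyl adenylate and then pass the acyl group on, most often to coenzyme A. The superfamily covers long-chain acyl-CoA synthetases, which handle fatty acids, and 4-coumarate:CoA ligases, which feed phenylpropanoid synthesis, with many relatives of less certain substrate. AAE15 is a plastid enzyme that joins free fatty acids to acyl carrier protein rather than to coenzyme A, which lets them enter fatty acid elongation in the chloroplast. AAE16 is its closest relative in Arabidopsis, while 4CL8 is named for its resemblance to the 4-coumarate:CoA ligases and belongs to a different branch.

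The 3 genes did not share a pattern over the lines. AAE16 lay far on the positive side in AK069096, at 1.73 ± 0.21 (SD, n = 2 arrays), and 4CL8 in AK073210, at 1.62 ± 0.23 (SD, n = 2). On the assumed log base these are ratios of 3.32 and 3.08. AAE15 stayed between -0.23 and 0.18 as a mean of any line.

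**Figure D1:**
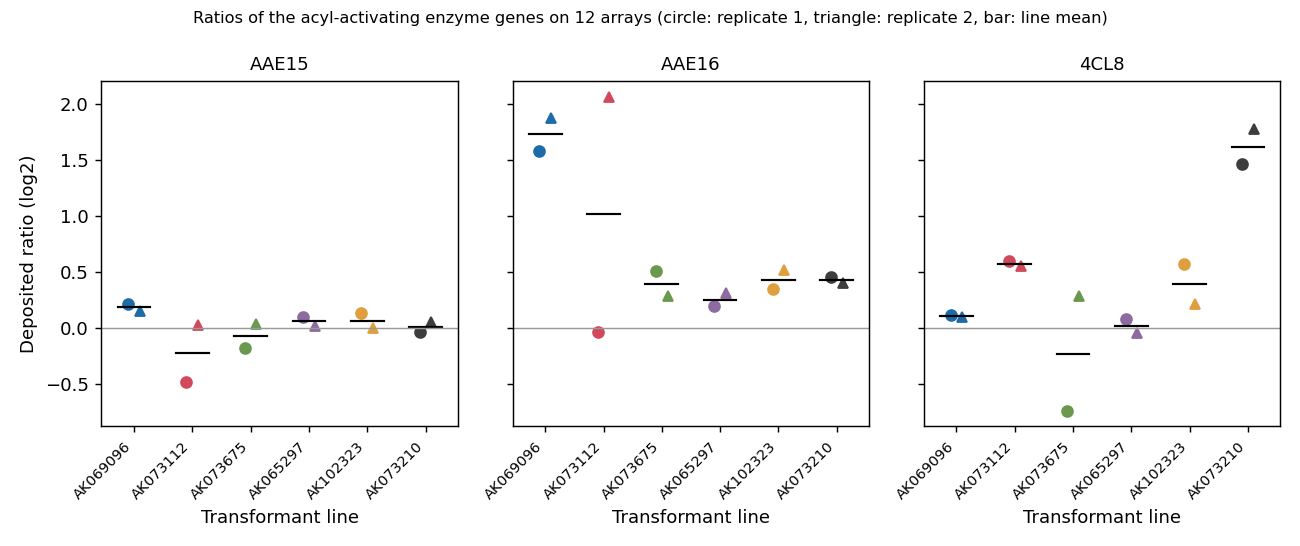
Deposited ratio (log2, y axis) of AAE15, AAE16 and 4CL8 in each of 6 lines (x axis), with circles for replicate 1, triangles for replicate 2 and bars for line means. AAE16 is high on both AK069096 arrays and on AK073112 replicate 2 but not on replicate 1, 4CL8 is high on both AK073210 arrays, and AAE15 stays near 0.

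AAE15 is described first. In AK069096 its ratios were 0.21 and 0.15 on replicates 1 and 2, the highest of its values. In AK073112 they were -0.48 and 0.03. The value of -0.48 was the farthest from 0 for this gene, and the replicates of this line lay 0.51 apart. AK073675 had -0.18 and 0.04, AK065297 had 0.10 and 0.02, AK102323 had 0.13 and 0.0030, and AK073210 had -0.04 and 0.06. Most arrays thus lay close to 0, with 9 above 0 and 3 below, and the mean of the 6 lines was 0.0042. The SD between line means of AAE15, 0.14, was below the 0.21 that was the median of this SD over all probes. Its SD between replicates was 0.17. That is the spread of single arrays, which exceeds the spread that noise alone gives to means of 2 arrays. The 2 SDs therefore cannot be compared directly. In the order of line means, AK069096 (0.18), AK102323 (0.07), AK065297 (0.06), AK073210 (0.0086), AK073675 (-0.07) and AK073112 (-0.23), every pair of neighbours differed by less than the SD between replicates, and the arrays of AK069096 alone did not overlap with those of the next line. The mean of AK073112 moves to 0.03 without its replicate 1 and to -0.48 without its replicate 2.

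AAE16, the close relative, did not stay near 0. In AK069096 it had 1.58 and 1.88 on replicates 1 and 2, above 98.6% and 99.4% of the probes of those arrays. In AK073112 it had -0.03 and 2.07, so the replicates of this line lie 2.1 apart. The value on replicate 2 was the highest of the 12, and the value on replicate 1 the only one on the negative side. In AK102323 the values were 0.35 and 0.51, in AK073210 0.45 and 0.41, in AK073675 0.51 and 0.28, and in AK065297 0.19 and 0.32. All arrays of these other 4 lines therefore lay on the positive side, below the AK069096 arrays and without overlap with them.

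The mean of AAE16 over the 6 lines was 0.71, with 11 of 12 arrays positive and a median array of 0.43. Leaving out AK073112 replicate 2 brought it to 0.54, and leaving out replicate 1 of that line to 0.88. For the line AK073112 the mean of 1.02 ± 1.48 (SD, n = 2) is carried by replicate 2 alone: it moves to -0.03 without that array and to 2.07 without the other. Line means of AAE16 were 0.43 in AK102323, 0.43 in AK073210, 0.40 in AK073675 and 0.25 in AK065297, and neighbours among these 4 overlapped. Its SD between line means, 0.57, exceeded that of 93.1% of all probes, but its SD between replicates, 0.62, exceeded that of 94.4%, because of AK073112.

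The arrangement of arrays seen for AAE16, with both AK069096 arrays and AK073112 replicate 2 above the other 9, was shared by 2389 of 21494 probes, or 11.1%. AAE16 was separated by 1.07 between the lowest of the 3 high arrays (1.58) and the highest of the rest (0.51), and 54 probes, AAE16 among them, had a separation at least as wide. Without AK073112 replicate 2, both AK069096 arrays stood above the other 9 for 2788 probes, or 13.0%, and 63 of them, counting AAE16, had a separation at least as wide as AAE16. The pattern is thus common on these arrays, while few probes had so wide a separation. AAE16 was chosen from these values and the arrangement was set by its own arrays, so its place among those probes is only a description.

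4CL8 was high in a different line. In AK073210 it had 1.46 and 1.78 on replicates 1 and 2, above 97.7% and 99.2% of the probes of those arrays. In AK073112 it had 0.59 and 0.56, and here the replicates that disagreed for AAE16 lay 0.04 apart. AK102323 had 0.57 and 0.22 and AK069096 had 0.12 and 0.10. On the AK069096 arrays, where AAE16 was far from 0, 4CL8 was close to it. AK065297 had 0.08 and -0.04, and AK073675 had -0.74 and 0.28. The replicates of AK073675 thus lay on opposite sides, and their mean of -0.23 ± 0.72 (SD, n = 2) becomes 0.28 without replicate 1 and -0.74 without replicate 2.

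Ordered by line mean, 4CL8 ran from AK073210 (1.62) through AK073112 (0.58), AK102323 (0.40), AK069096 (0.11) and AK065297 (0.02) to AK073675 (-0.23). The step from AK073210 to AK073112, 1.04, was larger than the SD between replicates of 0.33, a spread of single arrays, and left no overlap between arrays. All later steps were smaller than that SD, although AK102323, AK069096 and AK065297 did not overlap with each other. The SD between line means of 4CL8, 0.65, exceeded that of 95.6% of all probes, with an SD between replicates above that of 72.3%. Both AK073210 arrays above the other 10 is an arrangement found in 965 of 21494 probes, or 4.49%. For 4CL8 the lowest AK073210 array (1.46) and the highest of the rest (0.59) were 0.87 apart, a separation that 92 probes reached or passed, counting 4CL8. As for AAE16, the gene was chosen from these values and the arrangement was set by its own arrays. The place of 4CL8 among those probes is therefore only a description. Over the 6 lines the mean of 4CL8 was 0.42, with 10 of 12 arrays positive.

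Set against each other as differences of log2 ratios, AAE16 exceeded AAE15 on 12 of 12 arrays. The difference was smallest in AK065297, with 0.19 ± 0.14 (SD, n = 2), and largest in AK069096, with 1.55 ± 0.25 (SD, n = 2). In AK073112 it was 0.45 on one array and 2.04 on the other. 4CL8 and AAE15 differed by 1.61 ± 0.16 (SD, n = 2) in AK073210 and by -0.08 ± 0.03 (SD, n = 2) in AK069096, and 4CL8 was above AAE15 on 7 of 12 arrays.

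AAE16 and 4CL8 had their highest means in different lines, and in each the other gene lay lower, still on the positive side. AAE16 had 0.43 in AK073210 and 4CL8 0.11 in AK069096. AAE16 minus 4CL8 was 1.62 ± 0.22 (SD, n = 2) in AK069096 and -1.19 ± 0.26 (SD, n = 2) in AK073210. Over the 12 arrays, which pair up by line and all share the Col-0 comparison, Pearson's r was 0.47 between AAE15 and AAE16, 0.01 between AAE15 and 4CL8, and -0.12 between AAE16 and 4CL8. Spearman's rho was 0.26, -0.10 and -0.11 for the same pairs. Without AK073112 replicate 2 the r of these pairs was 0.56, 0.0090 and -0.20. These are descriptions of arrays from 6 lines.

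**Figure D2:**
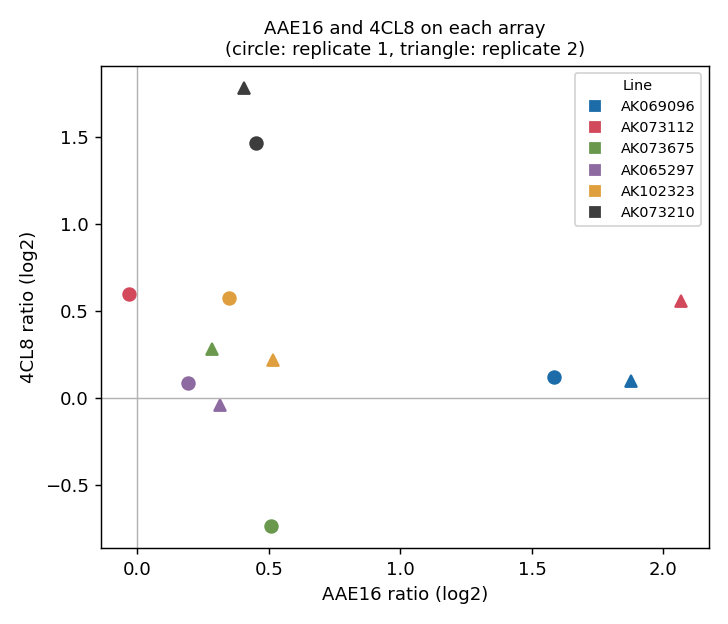
Ratio (log2) of 4CL8 (y axis) against that of AAE16 (x axis) on each of 12 arrays, coloured by line, with circles for replicate 1 and triangles for replicate 2. The AK069096 arrays and AK073112 replicate 2 lie far to the right, and the AK073210 arrays lie at the top, with AAE16 at 0.45 and 0.41.

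The genes most like each member were taken from the 1314 other probes with 1 gene and a symbol other than a locus code, by Pearson's r over the 12 arrays. Most of the 9335 probes listed with 1 gene are known by locus alone and were not eligible. For AAE16 the nearest was GAMMA-VPE, a vacuolar processing protease gene (r = 0.98), followed by the glucosyltransferase gene GT72B1 (0.98), the cytochrome P450 gene CYP78A9 (0.98), the peroxidase gene PRXR1 (0.96) and the protease inhibitor gene SERPIN1 (0.96). GAMMA-VPE had a line mean of 3.31 in AK069096 and of 0.56 to 1.34 in the other lines. At the other end stood CHLI2, a magnesium chelatase subunit gene of chlorophyll synthesis (r = -0.98), CP5 (-0.98) and PSB27, a photosystem II assembly gene (-0.98). CHLI2 ran from -1.48 in AK069096 to -0.36, and PSB27 from -1.85 to -0.47. Of all 21494 probes, 430 had an r of at least 0.9 with AAE16, and 309 did without AK073112 replicate 2. Without that array the r was 0.99 for GAMMA-VPE, 0.96 for each of the 4 genes next to it, -0.98 for CHLI2 and -0.96 for CP5 and PSB27.

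For 4CL8 the 5 nearest were IQD26 and IQD18, genes of calmodulin-binding IQ-domain proteins (r = 0.92 and 0.90), the glycerol-3-phosphate dehydrogenase gene GPDHC1 (0.88), VGD1, a pectin methylesterase gene of pollen tubes (0.87), and the carboxypeptidase-like gene scpl25 (0.84). Their sizes differed: IQD26 reached 0.40 in AK073210 and VGD1 3.85, against 1.62 for 4CL8. TRM19 (r = -0.89), the glutathione transferase gene GSTL3 (-0.83) and the Rab GTPase gene ARA6 (-0.81) had the opposite pattern. Of all probes, 14 had an r of at least 0.9 with 4CL8.

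For AAE15, whose values span less than those of the other members, the nearest were the glutathione transferase gene GSTU27 (r = 0.94), the glutamate receptor-like gene GLR3.5 (0.90), bHLH104, a regulator of iron response (0.90), TRM15 (0.89) and the clock gene GI (0.89). The thioredoxin gene TO1 (-0.93), the ubiquitin-conjugating enzyme gene UBC22 (-0.91) and TBL37 (-0.90) lay at the other end. With Spearman's rho in place of r, 1 of the 5 nearest genes stayed among the 5 for AAE15, 0 for AAE16 and 1 for 4CL8, so these lists depend on the measure. For GI the rho was 0.36 against an r of 0.89.

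**Figure D3:**
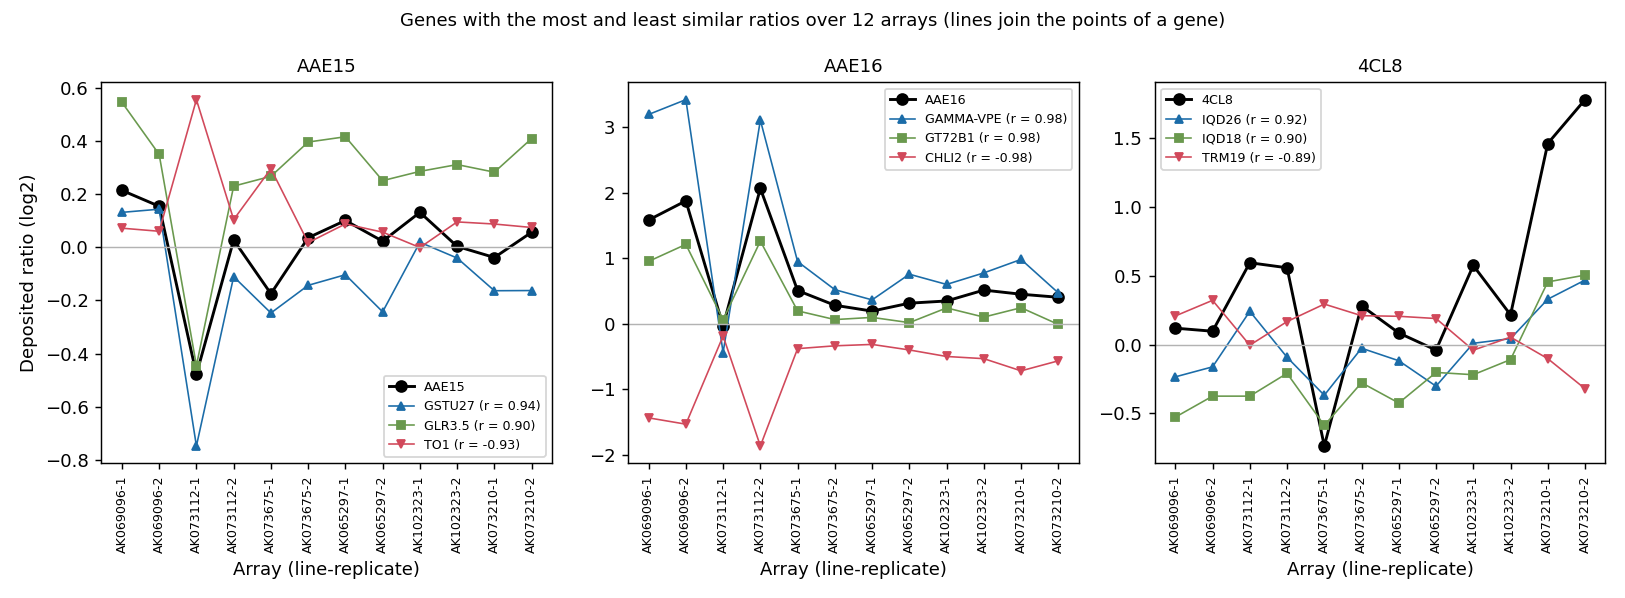
Ratios (log2, y axis) on the 12 arrays (x axis, line and replicate) of each member in black with the 2 genes of highest and the 1 of lowest Pearson r. GAMMA-VPE peaks with AAE16 on the AK069096 arrays and AK073112 replicate 2 while CHLI2 dips there, and IQD26 follows 4CL8 at smaller values.

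Because VGD1 was among the 5 genes nearest to 4CL8 by r (0.87, with a rho of 0.44), the pollen markers are given beside it. Of 8 listed marker genes 4 were measured. VGD1 had 3.65 and 4.05 on the AK073210 arrays, and its close homologue VGDH1 had 2.41 and 3.07. Both differed among the 6 lines by limma's F test, with an adjusted p of 0.0195 for VGD1 and 0.0123 for VGDH1. VGD1 was picked for its likeness to 4CL8 on these same arrays, and VGDH1 came in with it. These tests are therefore no separate support. The other 2, AT5G45880 and the actin gene ACT12, had line means of 0.13 and 0.60 there. The mean of the 4 was 1.83 in AK073210 and between -0.36 and 0.17 in the other lines. In AK073112, where 4CL8 stood at 0.58, that mean was 0.07, and VGD1 had a line mean of -0.17. The part of pollen or anther tissue in the 4CL8 values was not tested.

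Shoot and root markers are given beside AAE16. Of the 8 shoot markers 3 were measured, and their mean was -0.76 in AK069096 and between -0.60 and -0.27 in the other lines. On the AK073112 arrays that mean was 0.27 on replicate 1, where AAE16 had -0.03, and -0.99 on replicate 2, where AAE16 had 2.07. The photosystem I gene PSAE-1 had -1.25 in AK069096, PSAN -1.09 and the Rubisco activase gene RCA 0.07. Of the 8 root markers, the expansin genes EXPA7 and EXPA18 were measured, with a mean of 0.24 in AK069096 and between -0.10 and 0.26 in the other lines. That mean joins values on opposite sides, since in AK069096 EXPA7 had -0.42 and EXPA18 0.89. The part of tissue make-up in the AAE16 values was not tested.

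By the TAIR10.1 annotation AAE15 lies on chromosome 4, AAE16 on chromosome 3 and 4CL8 on chromosome 5. Of the protein-coding genes next to them on either side, 1 has a listed probe: AT4G14060, beside AAE15. It ran from -0.75 in AK069096 and -0.72 in AK073112 to 1.46 in AK065297, a range that AAE15 did not share (r = -0.15 over 12 arrays).

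The rest of the superfamily was tested, as a list that takes its loci whichever way their ratios went. Of 40 further loci listed for the superfamily 12 have a probe with 1 gene, and none of them is AAE15, AAE16 or 4CL8. In the mean of all 6 lines 2 of the 12 passed on the positive side, where 26.4% of all probes passed, and 4 on the negative side, where 24.5% passed. The median over the 12 was -0.05, beside 0.0059 over all probes. With 12 genes, both counts lie within 2 genes of what the background shares would give.

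On the positive side were AT1G20490, at 0.54 ± 0.07 (SE of the limma fit, n = 12 arrays, adjusted p = 0.000648), and OPCL1, whose enzyme activates a jasmonate precursor in peroxisomes, at 0.28 ± 0.05 (SE, n = 12, limma adjusted p = 0.00266). AT1G20490 was positive on 9 of 12 arrays and OPCL1 on 8. On the negative side AT1G75960 had -0.64, AT1G20480 -0.58, AT5G16340 -0.35 and AT1G21540 -0.12. The acetyl-CoA synthetase gene ACS, at -0.07, and the other 5 genes, between -0.07 and 0.09, did not pass.

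Differences among the 6 lines were tested with limma's moderated F test, in which an effect common to all arrays cancels. AT1G20480 (adjusted p = 0.0123), AT1G75960 (adjusted p = 0.0358) and AT1G21540 (adjusted p = 0.042) passed, 3 of 12 genes where 3.36% of all probes passed. The count was 1, AT1G20480, without any single array of the lines other than AK073112 and with the replicate block, and it was 5 without AK073112 replicate 1, 7 without AK073112 replicate 2 and 4 with array weights. OPCL1 did not pass (adjusted p = 0.0555).

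AT1G20480 had -1.82 and -1.77 in AK069096, -1.62 and -1.15 in AK073112 and -1.49 and -1.33 in AK065297. In AK102323 it had 1.13 and 0.29 and in AK073210 0.45 and 0.35, while both AK073675 arrays list it at 0. It therefore lay on opposite sides in 3 and 2 lines, with no overlap. With exact zeros taken as missing it could not be fitted for AK073675 and was left out.

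AT1G75960 had -1.99 and -1.80 in AK069096 and -1.16 and -2.34 in AK073112, and its other 8 arrays lay between -0.25 and 0.32. Unlike AAE16, it was far from 0 on both AK073112 arrays. OPCL1 had 0.71 and 0.73 in AK069096 and 0.68 and 1.02 in AK073112, above the other 8 arrays, which lay between -0.23 and 0.29. AT1G20490 had 1.52 and 1.26 in AK073210, its highest arrays, where 4CL8 was also highest, and 0.55 and 1.04 in AK073675, where 4CL8 had -0.74 and 0.28. AT1G21540 had 0.47 and 0.38 in AK073210 and was negative on all 10 other arrays.

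**Figure D4:**
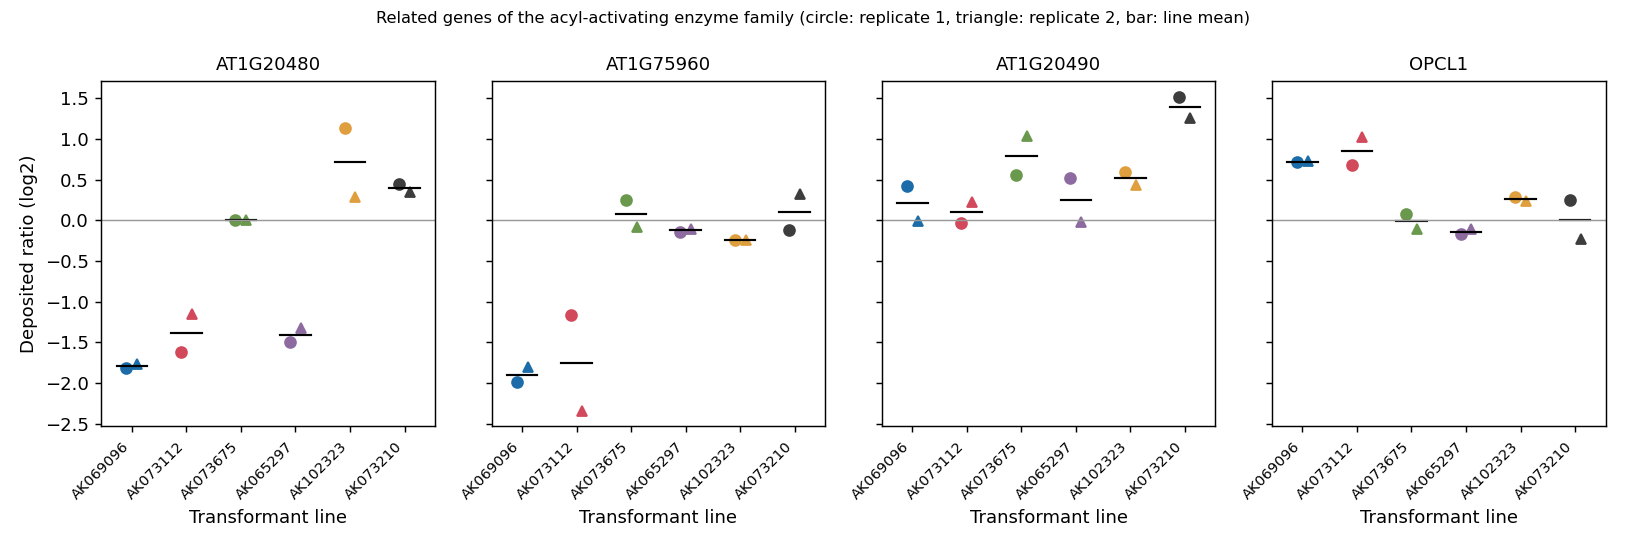
Deposited ratio (log2, y axis) of 4 related genes in each line (x axis), with circles for replicate 1, triangles for replicate 2 and bars for line means. AT1G20480 is near -1.5 in 3 lines and on the positive side in 2, AT1G75960 is far negative and OPCL1 positive in AK069096 and AK073112, and AT1G20490 is highest in AK073210.

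Against Col-0, line by line, the 12 related genes were read beside the share of all probes that passed. In AK069096, the line in which AAE16 was high, 2 passed on the positive side (16.1% of all probes), OPCL1 and AT2G17650 (0.38), and 3 on the negative side (15.3%), AT1G75960, AT1G20480 and AT1G21540 (-0.37). Of these 5, AT1G75960 and AT1G20480 passed in every setting in which they could be fitted, and the other 3 did not pass without either AK069096 array. In AK073112 OPCL1 and AT2G17650 (0.33) were again the 2 with a positive call (10.3%), and AT1G75960 and AT1G20480 were the 2 with a negative call (10%). With array weights 0 of these 4 passed, and AT2G17650 also did not with quantile normalization or without AK073112 replicate 1. In AK073210, where 4CL8 was high, AT1G20490 at 1.39 ± 0.18 (SE, n = 2 arrays, limma adjusted p = 0.0053) and AT1G21540 at 0.42 passed on the positive side (5.16%), but neither did without AK073210 replicate 1, nor AT1G21540 without replicate 2. On the negative side 0 passed by limma there (4.53%), and 0 at an unadjusted p under 0.05. AT1G20490 was the 1 gene past the threshold on the positive side in AK073675 (2.74%), with 0 negative calls (3%) and 1 at an unadjusted p under 0.05. That call was lost in 12 of 16 other settings, the replicate block and array weights among them. AT1G20480 was the 1 on the negative side in AK065297 (3.31%), with 0 positive calls (3.02%) and 0 at an unadjusted p under 0.05, and it did not pass without either AK065297 array. In AK102323 limma called 0 of 12 on either side (1.99% and 2.06% of all probes), while 2 positive and 0 negative genes had an unadjusted p under 0.05.

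AAE15 and AAE16 act beside plastid fatty acid synthesis, so its genes are given too. Of 27 listed loci 8 were measured, and 7 of them passed on the negative side in the mean of all lines, where 24.5% of all probes passed, with 0 on the positive side by limma or at an unadjusted p under 0.05. The median of the 8 was -0.20, beside 0.0059 over all probes. A dye effect or a property of Col-0 common to all arrays cannot be told apart from such calls in the mean of all lines. FATB, the thioesterase gene that releases saturated fatty acids from acyl carrier protein, had -0.23 ± 0.04 (SE, n = 12 arrays, limma adjusted p = 0.00273) and was negative on 12 of 12 arrays. FaTA, a thioesterase gene for oleate, had 0.07 and did not pass. The 6 other genes that passed are known here by locus alone: AT2G22230 at -0.44, AT5G10160 at -0.37, AT2G34590 at -0.25, AT4G13050 at -0.17, AT4G16155 at -0.16 and AT1G24360 at -0.16. AT4G16155 was negative on 8 of 12 arrays and did not pass with array weights or without AK069096 replicate 1.

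In AK069096 5 of these 8 genes passed on the negative side, where 15.3% of all probes passed, AT2G22230 at -1.08, AT5G10160 at -1.03, AT2G34590 at -0.58, AT4G13050 at -0.33 and AT1G24360 at -0.32, while AAE16 lay at 1.73 and AAE15 at 0.18. None of the 5 passed without AK069096 replicate 1 or without replicate 2, and AT4G13050 and AT1G24360 did not with quantile normalization. Of the measured shoot markers, PSAE-1 at -1.25 and PSAN at -1.09 lay on the same side in that line, while RCA lay at 0.07. In AK073112, AT2G22230 had 0.17 and -1.08 on replicates 1 and 2 and AT5G10160 had 0.37 and -0.99, where the mean of the shoot markers was 0.27 and -0.99. The part of tissue make-up in these values was not tested. On the negative side, 1 gene passed in AK073112 (10% of all probes), AT4G13050 at -0.47, which was lost with array weights. FATB was the 1 in AK073675 (3%), at -0.45, lost in 10 of 16 other settings, and AT4G16155 the 1 in AK073210 (4.53%), at -0.55, lost without either AK073210 array. In AK065297 and AK102323 limma called 0, with 1 negative gene at an unadjusted p under 0.05 in each. By the F test 0 differed among lines (3.36% of all probes did), 2 had an unadjusted p under 0.05, and the count became 3 without AK073112 replicate 1, without AK073112 replicate 2 and with array weights.

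**Figure D5:**
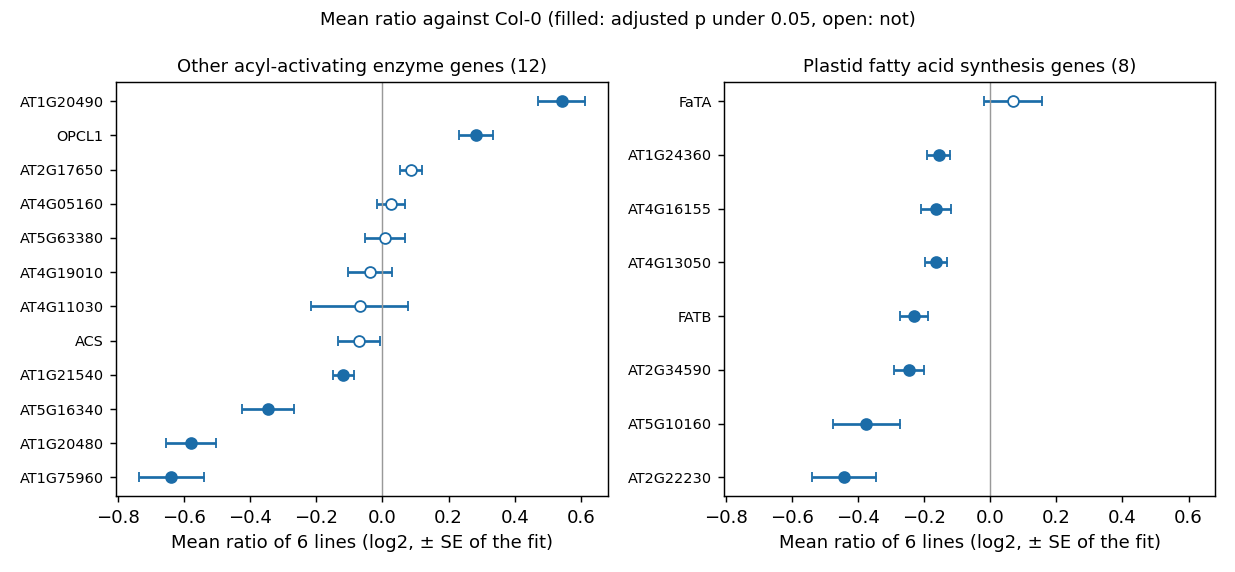
Mean ratio of 6 lines (log2, x axis, with the SE of the fit) of 12 other acyl-activating enzyme genes and of 8 plastid fatty acid synthesis genes, with filled points for an adjusted p under 0.05. The acyl-activating genes lie on either side of 0, and 7 of the 8 fatty acid synthesis genes lie on the negative side.

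Other lists around the members had few measured genes. Of 19 phenylpropanoid and monolignol genes, the pathway served by 4-coumarate:CoA ligases, 2 were measured. CCR2, a cinnamoyl-CoA reductase gene, had -0.72 ± 0.09 (SE, n = 12 arrays, limma adjusted p = 0.000387) in all lines and was negative on 12 of 12 arrays. HCT, a hydroxycinnamoyl transferase gene, had -0.30 (limma adjusted p = 0.00218). In AK069096, the line of the highest AAE16 mean, CCR2 had -1.43 and HCT -0.61, and both passed there, though neither did without AK069096 replicate 1, nor HCT without replicate 2. CCR2 also passed in AK073112, at -0.94 (limma adjusted p = 0.0185), though not with array weights, while HCT at -0.17 did not pass there. In AK073210, where 4CL8 was high, CCR2 had -0.61 and HCT -0.29, and neither passed in that line alone. Of 15 plastid glycerolipid genes 1 was measured, AT3G57280, with -0.10 in all lines (adjusted p = 0.0251). It did not pass without AK069096 replicate 2, AK073675 replicate 2, AK065297 replicate 2, AK073210 replicate 2 or either AK102323 array. Of 21 genes of peroxisomal beta-oxidation and jasmonate synthesis OPCL1 and AIM1, a beta-oxidation gene, were measured, and AIM1 had -0.08 and did not pass, except on the negative side without AK073112 replicate 2.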

How the data were processed

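The series holds 12 two-colour Agilent arrays, 1 table of deposited ratios and 21500 probes. Per the submitters' processing notes the scanner software was Agilent Feature Extraction 7.1.1. The authors deposited 1 log ratio per probe and array, with a median of 0 on each array. Its base and direction are not stated; the deposited values were taken as log10 ratios from their form. The sources used here give no channel intensities, background method or dye correction, so dim spots could not be filtered. The number of arrays limits the precision.

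Ratios were put on the log2 scale. limma 3.58.1 in R 4.3.3 fitted a mean per line on the 21494 probes with all 12 values, with 1 spread for all lines (6 residual degrees of freedom). Tests were each line and the mean of 6 lines against 0, and an F test among lines, all with Benjamini-Hochberg adjustment over all probes and a threshold of 0.05. No Col-0 sample was hybridised against another, so the tests leave out the spread of Col-0 itself. On simulated arrays the line test recovered 90 of 100 probes changed by a log2 of 2 in AK069096 and 56 of 100 changed by 1, and the F test 68 and 19. All other simulated probes were left unchanged, whereas limma called 6763 probes in AK069096 on the real arrays. The adjustment was thus stricter in the simulation, and its counts do not give the power of the reported tests.

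Of the probes 9335 are listed with 1 gene, 40 with several and 12125 with none; 9317 matched the TAIR10.1 annotation by gene ID. Members, gene lists and tests were chosen with earlier results of these data known. Named genes are the members, the genes most like them by r (5 highest, 3 lowest), and the measured genes of the lists; from the superfamily list, the highest and lowest 3 past the threshold and the 3 smallest p of the F test, with others named where a count is small, after their values were seen. Replicate numbers come from the titles. Same-numbered arrays of different lines deviated together with r above 0.1 in 2 of 15 pairs of lines (-0.07 to 0.17), so numbers were not taken as pairs. Alternatives were quantile normalization, exact zeros as missing, a replicate block, array weights and leaving out each array. Counts for AAE16 over all probes without AK073112 replicate 2 were added after seeing the data. Sequences were not used here.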

Additional observations from a re-analysis of the deposited data

Results flagged for a closer look

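Among the genes of the superfamily and pathway lists, those whose ratio against Col-0 differed between lines by the F test were AT1G20480 (adjusted p = 0.0123), AT1G75960 (adjusted p = 0.0358) and AT1G21540 (adjusted p = 0.042). For AT1G20480 line means ran from -1.79 in AK069096 to 0.71 in AK102323, for AT1G75960 from -1.90 in AK069096 to 0.10 in AK073210, and for AT1G21540 from -0.37 in AK069096 to 0.42 in AK073210. Of the pollen markers given beside 4CL8, VGD1 (adjusted p = 0.0195) and VGDH1 (adjusted p = 0.0123) also differed between lines, with line means of 3.85 and 2.74 in AK073210. These markers were given because VGD1 was among the genes nearest to 4CL8 by r on the same arrays, so their tests are no separate support. Over the settings run, the adjusted p of AT1G20480 stayed between 0.00559 and 0.0438, that of AT1G75960 lay between 0.00292 and 0.111, and that of AT1G21540 between 0.0145 and 0.143. With 2 arrays per line no outlier within a line could be tested.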

How the results depend on the processing

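Leaving out 1 array gave 6-line means of -0.04 to 0.05 for AAE15, 0.54 to 0.88 for AAE16 and 0.33 to 0.50 for 4CL8. A single array has little weight in such a mean, and the replicate block and array weights cannot move it. These narrow ranges are therefore no sign of stability. Quantile normalization gave 0.0049, 0.69 and 0.37. Single line means moved more, as for AAE16 in AK073112, from 1.02 to -0.03 or 2.07. Counts of probes past the threshold over the whole table also moved. Leaving out 1 array gave 1351 to 9303 for AK069096 (6763 with all arrays), 3309 to 6677 for AK073112 (4366), 20 to 4053 for AK073675 (1235), 74 to 3984 for AK065297 (1360), 19 to 3097 for AK102323 (870), 399 to 4972 for AK073210 (2082), 9217 to 12667 for all 6 lines (10944) and 136 to 5593 for differences among lines (722). A line left with 1 array is assumed to vary like the others. Quantile normalization gave 4066 for AK069096, 2574 for AK073112, 3724 for AK073675, 3007 for AK065297 and 3698 for AK102323. Array weights gave 4 for AK073112, 6651 for AK065297, 6810 for AK102323, 3227 for AK073210 and 2992 for differences among lines. Both arrays of a line received the same weight, from 0.20 in AK073112 to 2.43 in AK102323. That setting thus weighted whole lines and could not mark a single array as deviating. The replicate block gave 413 for differences among lines, and by it AT1G75960 (adjusted p = 0.0622) and AT1G21540 (adjusted p = 0.0679) did not pass; it moved no other of these whole-table counts by over 1.5 times. The cause of these shifts was not tested. Signal over background, which would limit dim probes, was not used here.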
